A study of Mus musculus with 46 samples.

Results

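Cytosolic ribosomal proteins are the protein part of the particle that translates mRNA in the cytoplasm, and their genes were followed here through every library of sorted mouse microglia in the study. Members were chosen by symbol: a name starting with Rpl or Rps and a digit, or Rpsa, Rplp0, Rplp1 or Rplp2, leaving out pseudogenes and the Rps6k kinases. The rule found 89 genes of the 24824 listed in any of the 4 deposited tables. They were 43 proteins of the large subunit, 31 of the small subunit, the 3 proteins of the ribosomal stalk, 11 divergent or retrotransposed copies and Rps19bp1. The last binds Rps19 and is not a subunit of the ribosome, so the symbol rule took in 1 gene outside the family. The adult table lists 86 of them among 19762 genes, without the copies Rpl32l, Rpl37rt and Rps4l, and each of the other 3 tables lists all 89 among 24421.

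The small subunit of the ribosome reads the mRNA, the large subunit joins amino acids, and the stalk, built from Rplp0, Rplp1 and Rplp2, recruits the translation factors. Most ribosomal protein mRNAs start with a C followed by a run of pyrimidines, the terminal oligopyrimidine tract, through which mTORC1 and the RNA-binding protein Larp1 set their translation. Their transcripts are abundant in growing cells, and assembly needs the proteins in nearly equal numbers. These genes also left many processed copies in the genome, which can share reads with the parent gene.

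Microglia, the resident macrophages of the brain, gave 46 libraries. In 3 tables the mice were 10 to 12 weeks old and carried Cx3cr1CreER, a Cre that needs tamoxifen and is driven by the promoter of the fractalkine receptor, which other macrophages and monocytes use as well. Controls in these tables were Cx3cr1CreER:Dicer+/- and so already lacked 1 Dicer allele, and Dicer-deficient mice were Cx3cr1CreER:Dicerfl/-. The adult table held 4 control and 3 Dicer-deficient libraries at steady state. The total brain table held 3 control and 3 Dicer-deficient libraries at steady state, and 4 of each genotype taken 6 h after an intraperitoneal dose of 1 mg/kg lipopolysaccharide (LPS, a cell wall component of Gram-negative bacteria). The hippocampus table held 2 control and 3 Dicer-deficient libraries at steady state and 2 of each genotype after the same LPS dose. The labels name PBS as well as steady state for the total brain groups without LPS, and do not say which of these applied. The submitters' design text writes the same genotype for both adult groups and counts 3 Dicer-deficient LPS libraries from total brain, where the sample labels give distinct genotypes and 4. In the developmental table, Dicerfl/fl controls without Cre gave 4 libraries from embryonic day 14 (E14), 5 from newborns (P0) and 5 from adults of 6 to 8 weeks, beside 2 newborn Cx3cr1Cre:Dicerfl/fl libraries, whose Cre needs no tamoxifen. Later stages were sorted as CD45 intermediate and E14 cells as CD45+ with high F4/80, so gate and stage cannot be told apart.

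Recovered reads ranged from 898451 to 4573063 per library. Dicer1 encodes the nuclease that matures microRNAs, and its normalised read count did not separate the genotypes: it was 97.6 to 153 in adult-table controls and 117 to 151 in Dicer-deficient libraries, 83.8 to 132 and 74.2 to 155 in total brain, and 43 to 110.4 and 18 to 93.5 in the hippocampus. In newborns it was 57.8 to 88.7 in controls, and 195 and 85.4 in Dicer-deficient libraries 1 and 2. Reads captured outside the deleted exon do not check the deletion. All 12 microglial markers were listed above 0 in every group. The newborn Dicer-deficient library 1 had 992317 reads and stood apart from library 2 in most members, and the newborn results are given with and without it. Whether libraries came from separate animals is not stated, so the p-values reflect only how far these libraries spread. Comparisons within a table share groups of libraries. Fewer cells of a type and less RNA per cell cannot be told apart in bulk RNA.

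Start sites are shown first for the members on which the results turn, because the oligopyrimidine tract begins at the start of the mRNA. RefSeq promoters of build GRCm38.p6 matched 68 members. Each line gives 30 bases, 15 before and 15 from the annotated start on, and capitals mark a C followed by at least 4 C or T.
Rpl34, chr3:130730323-130730352, minus strand: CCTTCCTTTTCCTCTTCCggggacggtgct
Rps10, chr17:27635230-27635259, minus strand: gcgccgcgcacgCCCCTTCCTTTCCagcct
Rpl4, chr9:64173372-64173401, plus strand: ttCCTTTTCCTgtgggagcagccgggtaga
Rps24, chr14:24490663-24490692, plus strand: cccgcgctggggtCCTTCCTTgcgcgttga
Rps2, chr17:24720048-24720077, plus strand: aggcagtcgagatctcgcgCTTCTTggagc
Rpl26, chr11:68901551-68901580, plus strand: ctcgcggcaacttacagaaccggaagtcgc
Rpsa, chr9:120127751-120127780, plus strand: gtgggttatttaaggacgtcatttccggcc
Rps19bp1, chr15:80264292-80264321, minus strand: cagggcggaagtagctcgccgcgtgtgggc

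Such a run stood in the window of 42 of the 68 members (61.8%), against 36.4% of all 27025 promoters. It was 18 bases long in Rpl34, 13 in Rps10 and 6 in Rps2, and absent from the windows of Rpl26, Rpsa and Rps19bp1. A run counted anywhere in the window, so it need not be an oligopyrimidine tract. That of Rpl4 ended before the annotated start, and that of Rps2 began after it. The counts therefore do not show which mRNAs carry or lack the tract. Over the whole 300 bases of each promoter and on both strands, CCGGAAG, the core recognised by GA-binding protein and other ETS factors, stood in 38.2% of members against 9.08% of all promoters. The GC box GGGCGG stood in 58.8% against 35.6%, the YY1 core AAGATGGC in 8.82% against 2.86%, and TATAAA in 11.8% against 14.1%. A match is a description of letters in the window and shows no binding.

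Members differed in level by several orders of magnitude although a ribosome holds nearly all of them in equal numbers. In total brain steady-state controls, the mean normalised read count per kilobase of transcript over the 77 subunit and stalk genes had a median of 153. It ran from 0.993 for Rpl28 to 10836 for Rplp1, with 7 genes under 10 and 16 above 1000. Capture with oligo(dT) beads makes a level per kilobase approximate. The spread went along with sequence sharing: over the 77 genes, the level per kilobase had a Spearman rho of -0.43 with the share of 50-base words in the last 500 bases of the gene's transcripts that also occur in other annotated genes. That share was 81.8% for Rps2, with 69 other genes, 48.8% for Rpl26, 15.7% for Rpl34 and 0 for Rpl4 and Rpl12. How the authors' counting treated reads with several matches is not given in the sources used here, so levels of members with shared words, Rps2 and Rpl26 included, are uncertain. The share was higher still in other members, up to 100% for Rpl5.

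Ribosomal protein genes took 1.51% ± 0.0971 (SD, n = 3) of reads in total brain controls at steady state and 2.18% ± 0.312 (n = 4) after LPS. Each of the 4 control LPS libraries, at 1.84% to 2.52%, lay above all other total brain libraries. In Dicer-deficient microglia the share was 1.14% ± 0.115 (n = 3) at steady state and 1.39% ± 0.0885 (n = 4) after LPS, and both Dicer-deficient groups lay below their controls without overlap. Hippocampal controls had 1.76% and 1.82% at steady state and 2.13% and 2.33% after LPS, while Dicer-deficient libraries had 1.49% to 1.72% and then 1.22% and 1.43%. The share was highest in the developing brain, at 3.92% ± 0.415 (n = 4) at E14 and 3.27% ± 0.203 (n = 5) at P0 against 1.55% ± 0.092 (n = 5) in adults. Adult-table controls had 0.26% ± 0.0245 (n = 4), the lowest of all control groups. The mitochondrial ribosomal proteins, a separate family, took 0.326% in total brain steady-state controls and 0.229% in adult-table controls.

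**Figure D1:**
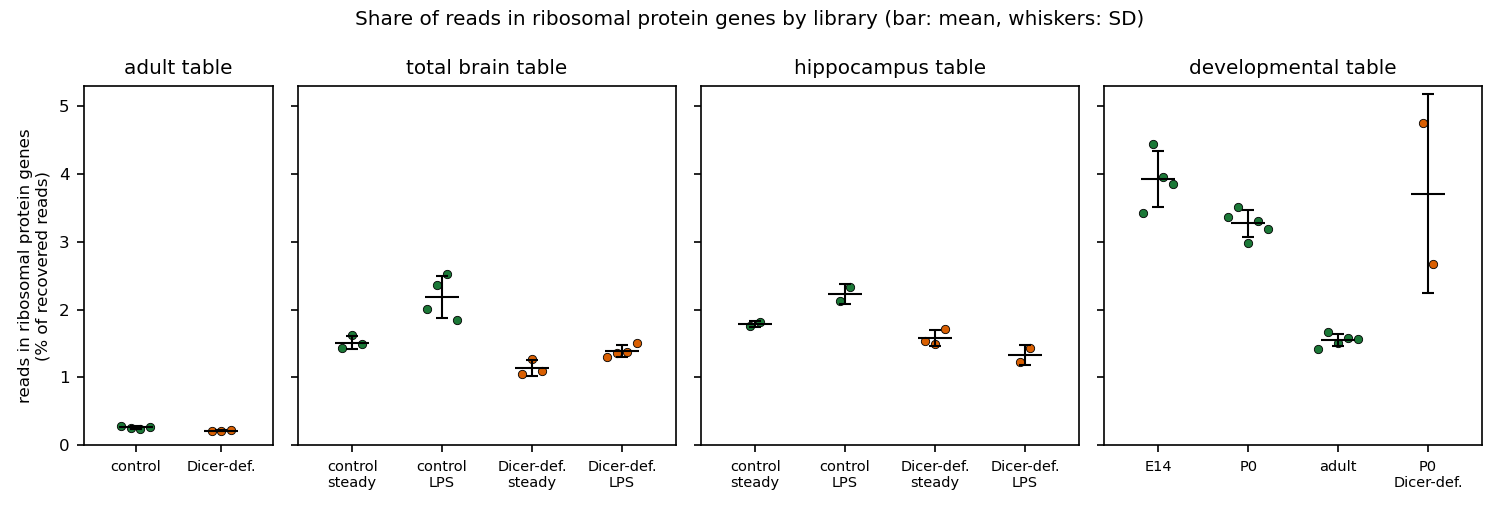
Percentage of recovered reads that fell in ribosomal protein genes, 1 point per library, grouped by genotype and treatment or stage in each table, with the group mean as a bar and its SD as whiskers. The adult table, where many members are listed at 0 in every library, sits between 0.201% and 0.288%. The total brain controls after LPS lie above the other total brain libraries, and E14 and P0 lie above the adult stage.

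After LPS, Dicer-deficient microglia of the total brain had lower ribosomal protein transcripts than LPS-treated controls. A gene was called when its Benjamini-Hochberg adjusted p in limma, over all genes tested, was under 0.05. Of 87 members tested, 22 were called lower and none higher, against 5.46% of all 12937 genes called lower and 3.93% called higher. The 22 comprised 10 of 43 large subunit genes, 10 of 31 small subunit genes, 1 of 3 stalk genes and 1 of 9 copies. The median log2 fold change of members was -0.56, against -0.10 over all genes tested, and 78 of 87 members lay below 0. Rpl10l and Rpl3l, copies known from testis and muscle, were too low to test here as in the other tables.

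Rps2, which lines the mRNA entry of the small subunit, had normalised read counts of 546, 422, 348 and 233 in the LPS-treated controls. In LPS-treated Dicer-deficient libraries it had 13, 26.3, 15.4 and 106. The groups did not overlap, and library 38 lay above the other 3 of its group. Its log2 fold change was -3.70 ± 0.67 (SE, adjusted p = 0.00258), a 13-fold difference on the log2(value + 1) scale.

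Rpl26, a large subunit protein that also binds the p53 mRNA, was at 279, 449.7, 419.7 and 376 in LPS-treated controls and at 11.1, 243, 14.2 and 17 in LPS-treated Dicer-deficient libraries. The groups did not overlap, although library 36 of the deficient group came close to the lowest control. The log2 fold change was -3.65 ± 0.63 (adjusted p = 0.00189). Both genes stayed called when any of the 8 libraries was left out.

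The other called members differed by less. Rpl39, a small protein at the exit tunnel of the large subunit, was at 165, 208, 212 and 232 in controls against 58.3, 82.2, 57.9 and 81.5 in deficient libraries, a fold change of -1.54 ± 0.34 (log2, adjusted p = 0.0084). Rps10, of the small subunit head, was at 48.5, 50.2, 59.5 and 43.6 against 13, 17.8, 23.1 and 30.1 (log2 -1.28 ± 0.29, adjusted p = 0.0108). Neither gene overlapped between groups. Rpl37a was at 1145, 420.3, 398 and 349.6 against 209, 229, 213 and 277 (log2 -1.14 ± 0.28, adjusted p = 0.0175). Its control library 17 stood far above the others, yet the groups were separate without it as well.

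Among the stalk proteins, Rplp1 was at 7320.1, 7505, 10439 and 7508 in controls and at 3340.4, 3753, 3796 and 4041 in deficient libraries, again without overlap. This most abundant member per kilobase fell by 1.12 on the log2 scale (SE 0.20, adjusted p = 0.00259). Rplp0 had means of 1414 ± 483 and 901 ± 76 and Rplp2 of 164 ± 39.3 and 90 ± 19 (SD, n = 4 each), and neither passed the test. Rps14, which sits at the decoding platform and is lost in the 5q- syndrome of humans, had means of 1321 ± 148 and 624 ± 136 and a log2 fold change of -1.10 ± 0.23 (adjusted p = 0.00721). Among the smallest called differences were those of Rps24 and Rps21 (both log2 -0.65), Rps3 (-0.62) and the copy Rpl37rt (-0.58). Leaving out 1 library ended the call of Rps21 in 8 of 8 refits and of Rps24 in 6.

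Other members had no call. Rpl4, a large subunit protein, had 3459, 4684, 5949 and 3028 in controls and 3459, 3768, 4039.6 and 3565 in deficient libraries, which overlap. Rpl34 had means of 336 ± 56.1 and 339 ± 93.1 (SD, n = 4 each). Rps6, the target of the S6 kinases, had 46.3 ± 3.2 and 35.3 ± 8.75, Rpl5 had 69.9 ± 18.2 and 62.9 ± 13.4, and Rpl11, which with Rpl5 restrains the p53 ligase Mdm2, had 15.4 ± 6.3 and 8.3 ± 4.7. None of these 5 was called. Among the copies that passed the filter, Rpl7l1 had 323 ± 58.5 and 339 ± 42, Rpl36al had 142 ± 24 and 143 ± 14, and Rpl22l1 had 59.6 ± 14.7 and 37.4 ± 4.22, also uncalled. Rps19bp1, outside the ribosome, had 115 ± 42.8 and 113 ± 20.1.

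Among the 19 other translation genes with an oligopyrimidine tract, 3 fell: Naca, a ribosome-bound chaperone (log2 -0.74), the elongation factor subunit Eef1d (-0.61) and the nucleolar chaperone Npm1 (-0.93). The median of that list was -0.22. Of 23 other initiation factors 0 were called in limma, with 3 at an unadjusted p under 0.05, and of 46 ribosome assembly genes 1 rose, Heatr1, an rRNA transcription and processing factor (log2 1.09). Of 77 mitochondrial ribosomal proteins 1 fell, Mrps33. Marker levels moved as well: 4 of 16 tested monocyte and neutrophil markers were called higher and 2 of 12 microglial markers lower in the deficient libraries. The monocyte and neutrophil markers summed to 580 to 4506 in controls and 1187 to 4085 in deficient libraries, none of the 18 being at 0 throughout either group, and the microglial markers to 89679 to 129238 and 92909 to 100918. Astrocyte markers summed to 624 to 887 and 1109 to 2056, with Aqp4 at 0 in both groups. Their part in the ribosomal protein differences was not tested.

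**Figure D2:**
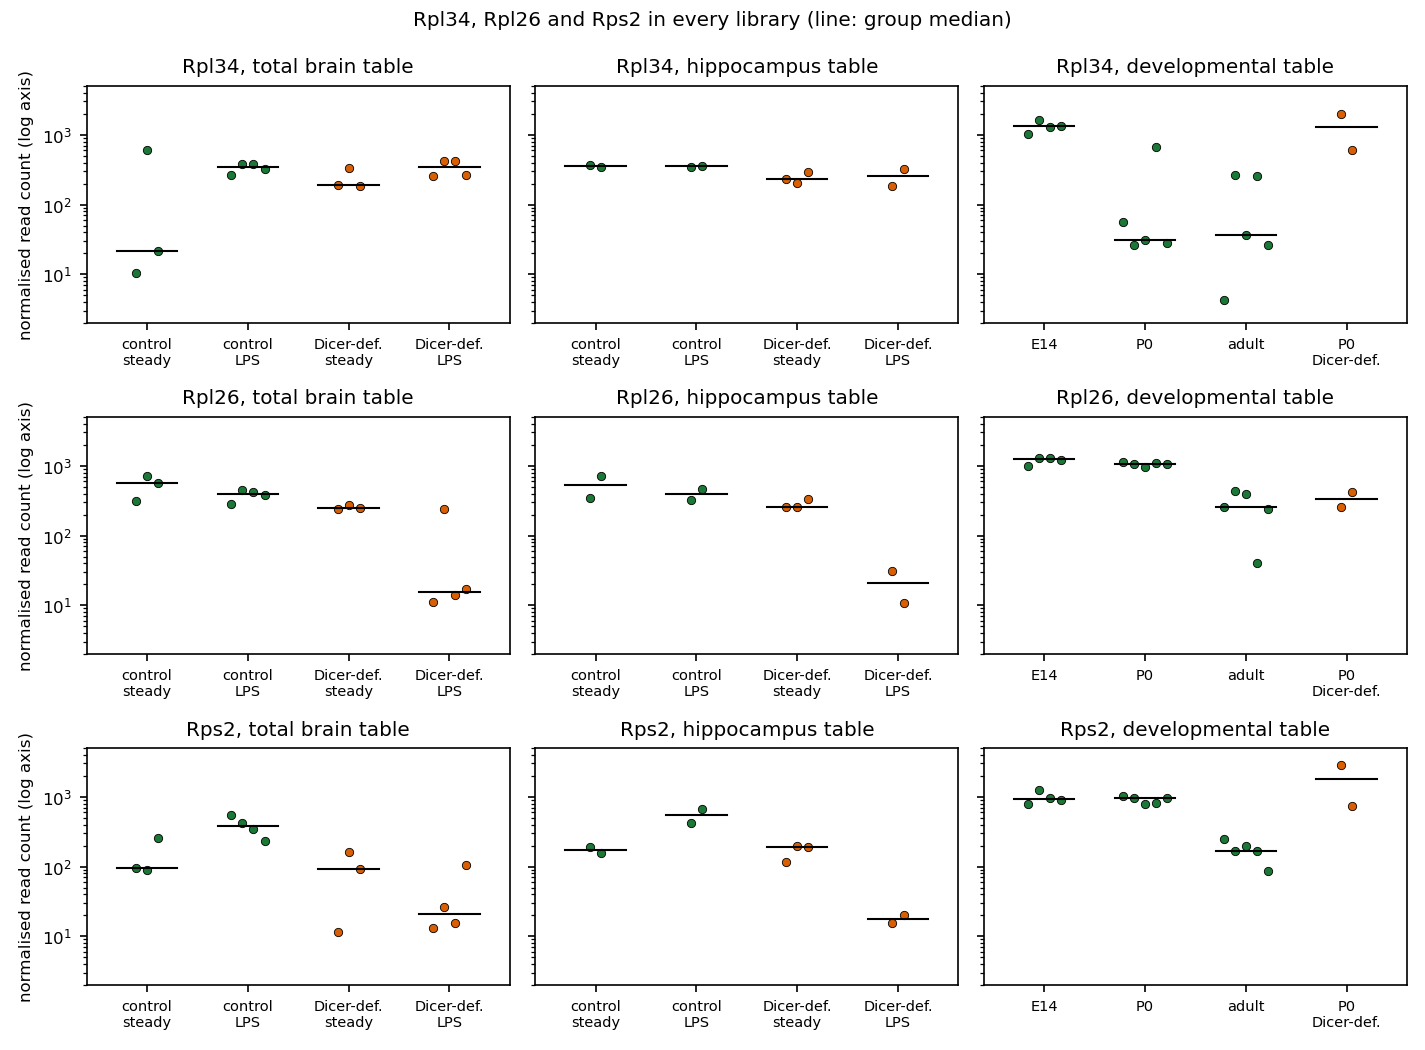
Normalised read counts of Rpl34, Rpl26 and Rps2 on a log axis, 1 point per library, by group in the total brain, hippocampus and developmental tables, with a line at the group median. The medians of Rps2 and Rpl26 are lowest in LPS-treated Dicer-deficient microglia of both regions, with single libraries outside that order (Rps2 at 11.6 in a steady-state and 106 in an LPS-treated Dicer-deficient library of the total brain), and Rpl34 spreads from 10.4 to 609 within total brain steady-state controls.

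At steady state in total brain the same direction was seen with fewer calls. Of 87 members 3 were called lower and 0 higher, where 1.38% of all 13423 genes were called lower and 0.797% higher, and the members' median was -0.42 against -0.10 for all genes. Rpl39 was at 268, 227 and 179 in controls and 133, 28.1 and 94.2 in Dicer-deficient libraries (log2 -1.63 ± 0.39, adjusted p = 0.0359). Rps24, mutated like several members in Diamond-Blackfan anaemia, was at 546, 669.5 and 619 against 239, 402 and 364 (log2 -0.90 ± 0.23, adjusted p = 0.0475). Rps26 was at 417, 371 and 382 against 168, 254 and 246 (log2 -0.83 ± 0.21, adjusted p = 0.0458). None of these 3 genes overlapped between groups. Rps2 overlapped, at 95.5, 90 and 253 in controls and 11.6, 162 and 91.4 in deficient libraries, and had no call. Border macrophage markers summed to 766 to 1046 in controls and 1073 to 1288 in deficient libraries, with Lyve1 and Cd209f at 0 in the latter, and their part was not tested. All 3 calls were marginal: edgeR called none of the members, DESeq2 called 7 lower, and leaving out 1 library left between 0 and 3 calls, the single one without control library 8 being in the other direction.

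Ribosomal protein transcripts were higher after LPS in control microglia of the total brain. Here 10 of 87 members were called higher and 0 lower, against 7.05% and 7.08% of all 13423 genes, and the median was 0.35 against -0.05. Rpsa, the laminin receptor and small subunit protein at the mRNA exit, was at 302, 278 and 320.5 at steady state and at 604, 783, 1519 and 546 after LPS. Every LPS library lay above every steady-state library, and the log2 fold change was 1.40 ± 0.28 (adjusted p = 0.00506). It was the only one of the 10 that stayed called when any of the 7 libraries was left out.

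Rpl4 rose from 2419.6, 2359 and 2072 to 3459, 4684, 5949 and 3028, with no overlap (log2 0.86 ± 0.24, adjusted p = 0.0251). Rplp0, the stalk base, rose from a mean of 703 ± 48.1 (SD, n = 3) to 1414 ± 483 (n = 4), a log2 fold change of 0.95 ± 0.24 (adjusted p = 0.0157). Others were Rpl12 (log2 1.37), which anchors the stalk, Rps20 (1.00), Rpl13 (0.86), Rpl8 (0.80) and Rpl18 (0.78). Rpl34 was called as well, with a log2 fold change of 2.62 ± 0.83 (adjusted p = 0.0415). Its values were 10.4, 609 and 21.8 at steady state and 262, 384, 375 and 324 after LPS, so control library 8 exceeded every LPS library and the groups overlapped. The call was lost in edgeR (log2 0.67, adjusted p = 0.61) and DESeq2 (log2 0.68, adjusted p = 0.678) and in 5 of 7 refits without a library, while without library 8 the log2 fold change was 4.37. With 1 library left out the count of called members ran from 2 to 17.

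Genes that build ribosomes rose more broadly than the ribosomal proteins themselves. Of 46 assembly genes 33 were called higher, with a median of 1.07, among them Nop56, a core protein of the box C/D particles that modify rRNA (log2 1.75), the helicase Ddx21 (1.44) and Rrp12 (2.01). Myc, which drives transcription of ribosome genes, rose by 2.02 ± 0.44 and Eif4ebp1, a repressor of cap-dependent translation, by 1.71 ± 0.21 (log2, adjusted p = 0.00743 and 0.000586). LPS control library 33 stood apart, with Myc at 72.3 against 325, 329 and 449.8 in libraries 17, 31 and 32. At steady state Myc was at 55.8, 60.6 and 60.9. Ncl, an assembly gene, was at 388 in library 33 and at 1578, 1324 and 2104 in the others. Its steady-state values were 391, 408 and 514. Of 23 initiation factors 9 rose, of 77 mitochondrial ribosomal proteins 11, and Gnb2l1, now called Rack1, a ribosomal protein outside the symbol rule, rose too (log2 0.65). Among monocyte and neutrophil markers 8 of 18 were called higher. Their sum was 1004 to 1169 at steady state, with Ly6c2, Ltf and 6 others at 0. After LPS the sum was 4506 in library 33. In LPS libraries 17, 31 and 32 it was 707, 905 and 580, below every steady-state library. Microglial markers summed to 123578 to 135059 and then 89679 to 129238, with 7 of 12 called lower. The part of these cell types in the changes was not tested.

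In Dicer-deficient microglia of the total brain, 8 members were called higher and 1 lower after LPS, where 12.2% and 12.8% of all genes were called higher and lower. The 8 members are 9.2% of 87, below the share of all genes. The median of members was 0.19 against -0.04 for all genes. Rpl4 rose from 1606, 2532 and 1556 to 3459, 3768, 4039.6 and 3565, without overlap and with no library deciding it (log2 1.00 ± 0.24, adjusted p = 0.00555). Rpl12 (0.97), Rpl3 (0.93), Rpsa (0.85), Rpl18 (0.66) and Rpl8 (0.57) were also called higher. Leaving out 1 library ended the calls of Rpl12 and Rpl18 in all 7 refits, of Rpl3 in 6 and of Rpsa and Rpl8 in 5. Rpl26 moved the other way, from 239, 273 and 248 to 11.1, 243, 14.2 and 17, so that library 36 alone reached the steady-state range (log2 -3.08 ± 0.68, adjusted p = 0.00302). That call held in all 7 refits without a library and was lost in edgeR and DESeq2. Of 46 assembly genes 30 rose and 1 fell. With 1 library left out, between 3 and 12 members were called: 2 up and 1 down without LPS library 37 or steady-state library 12, 3 up and 3 down without steady-state library 5, and 7 up and 5 down without steady-state library 11b. From steady state to LPS, summed markers of microglia went from 119816 to 139744 down to 92909 to 100918, with 7 of 12 called lower. Erythroid sums went from 122 to 684 up to 4586 to 10723, and astrocyte sums from 408 to 818 up to 1109 to 2056, with Aqp4 at 0 in both groups. Oligodendrocyte sums went from 423 to 492 down to 229 to 283, with Mobp and Cldn11 at 0 in both. Of 18 monocyte and neutrophil markers 12 were called higher and 1 lower. The part of these markers in the values of members was not tested.

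Whether the LPS effect differed between genotypes was tested as an interaction. No member was called in limma, edgeR or DESeq2, 3 had an unadjusted p under 0.05 in limma, and of all 13423 genes 0.127% were called higher and 0.0447% lower. The interaction of Rpl26 was -2.66 ± 0.97 (log2, adjusted p = 0.332) and that of Rps2 -2.51 ± 1.03 (adjusted p = 0.427). Without Dicer-deficient LPS library 36, the one with 243, the interaction of Rpl26 was -3.67 (adjusted p = 0.000241). The greater rise in controls is therefore not shown to differ from that in Dicer-deficient microglia for members taken singly.

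In hippocampal microglia, Rps2 and Rpl26 were again the members with the widest gap between genotypes after LPS. Of 87 members 3 were called lower and 0 higher, against 0.146% and 0.162% of all 12366 genes, and 83 lay below 0, with a median of -0.64 against -0.05. Rps2 was at 419 and 669.6 in LPS-treated controls and at 15.3 and 20.2 in LPS-treated Dicer-deficient libraries (log2 -4.84 ± 0.44, adjusted p = 0.000666). Rpl26 was at 327 and 468 against 30.5 and 10.8 (log2 -4.35 ± 0.50, adjusted p = 0.00205). Neither gene overlapped between groups.

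Rpl32, of the large subunit, followed at 1557 and 2075 against 537 and 640.4 (log2 -1.61 ± 0.25, adjusted p = 0.0197). With groups of 2, a refit without 1 library takes the lone sample to vary like the other groups. Rps2 stayed called in all 4 such refits, Rpl26 in 3, being lost without control library 16, and Rpl32 in 1. Other members were uncalled with values in the same order: Rplp1 had means of 8244 ± 794 and 4197 ± 454 and Rps14 of 1335 ± 443 and 794 ± 35.4 (SD, n = 2 each). Rpl39 overlapped, with 166 and 27.3 against 65.2 and 33.6. All 22 members called lower in total brain after LPS were below 0 in the hippocampus too, against 87.3% of the 679 other genes called lower in total brain. Nearly all of the 87 members lay below 0 in the hippocampus, whether or not they were called in total brain. The 22 are therefore not set apart from the rest of the family by this. Astrocyte markers summed to 484 to 955 in LPS-treated hippocampal controls and 1226 to 1589 in deficient libraries, with Aqp4, Slc1a2, S100b and Mlc1 at 0 in both groups. Border macrophage markers summed to 1516 to 1745 and 789 to 1024, with Lyve1, Cd163 and Cd209f at 0 in both, and no marker of either list was called. Their part was not tested. Across the 87 members the effects in the regions had a Pearson r of 0.74, and of 0.39 over 85 members without Rps2 and Rpl26, a description across genes that share libraries.

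At steady state in the hippocampus 0 members were called in limma, edgeR or DESeq2, 3 had an unadjusted p under 0.05 in limma, and 0.154% and 0.0162% of all genes were called higher and lower. Rps2 was at 191 and 156 in controls and 117, 199 and 189 in Dicer-deficient libraries, and Rpl26 at 340 and 707 against 253, 258 and 329. Rps2 overlapped between groups and Rpl26 did not.

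The response to LPS in hippocampal controls called 0 members in limma, with 6 at an unadjusted p under 0.05, against 2.35% and 2.89% of all genes, while edgeR and DESeq2 called 1 higher. The members' median was 0.32 against 0.00 over all genes, and 14 of 46 assembly genes were called higher. In Dicer-deficient hippocampal microglia LPS lowered 4 members and raised none, against 4.61% and 3.87% of all genes, with a median of -0.26 against 0.05. The 4 members are 4.6% of 87, about the share of all genes called lower. Rpl26 fell from 253, 258 and 329 to 30.5 and 10.8 (log2 -3.86 ± 0.45, adjusted p = 0.000289). Rps2 fell from 117, 199 and 189 to 15.3 and 20.2 (log2 -3.15 ± 0.40, adjusted p = 0.000506). Both genes were apart in every library.

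Rps24 fell from 938, 846 and 839 to 394 and 263 (log2 -1.44 ± 0.26, adjusted p = 0.00474), and the copy Rpl37rt fell by 0.82 (log2 scale, adjusted p = 0.0483), a call lost in all 5 refits without a library. Of 46 assembly genes 15 were called higher and none lower. Monocyte and neutrophil markers summed to 8539 to 8899 in these steady-state libraries, with Retnlg, Elane and Prtn3 at 0, and to 782 to 1026 after LPS, and 6 of 15 tested were called lower and 1 higher. In hippocampal controls the sums were 1637 and 3286 at steady state and 456 and 1747 after LPS. Their part in the ribosomal protein values was not tested.

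The hippocampal interaction, added after the data were seen, called Rps2 alone, against 0% of all genes called higher and 0.0162% lower. LPS went with more Rps2 in controls (191 and 156 to 419 and 669.6) and with less in Dicer-deficient microglia, a difference of -4.77 ± 0.59 (log2, adjusted p = 0.0207). The call was lost in 7 of 9 refits without a library, while edgeR and DESeq2 made it as well. Rpl26 had -3.53 ± 0.67 (adjusted p = 0.268) and was called by DESeq2 only.

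**Figure D3:**
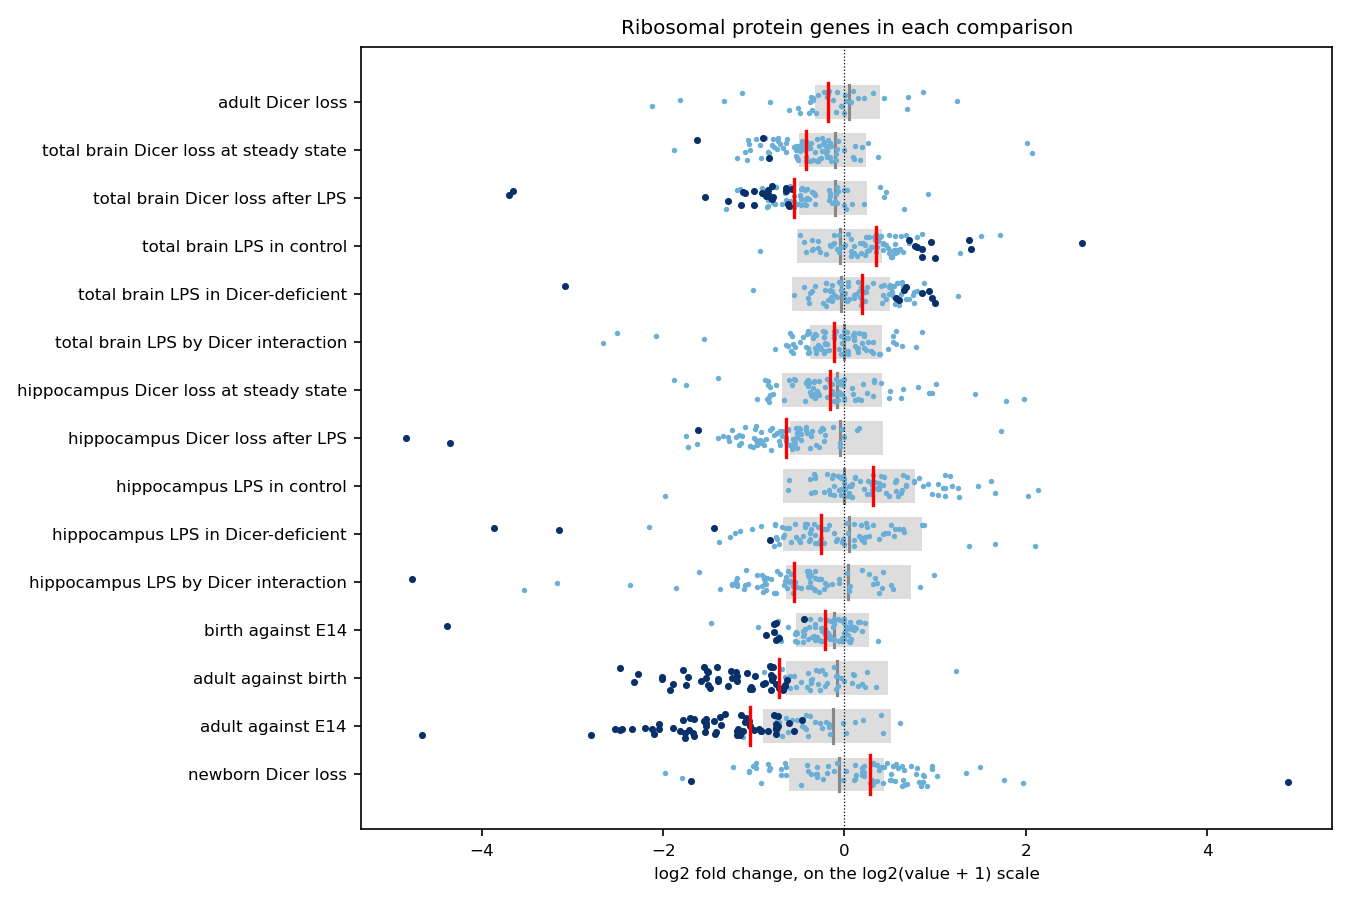
Log2 fold change of every tested member in each of the 15 comparisons, pale points uncalled and dark points called, with the members' median as a red line, the interquartile range of all genes tested as a grey bar and their median as a grey line. Called members lie below 0 for Dicer loss after LPS and for the adult stage, and above 0 for LPS in total brain controls.

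The developing brain gave the widest change of the family. From birth to adulthood 48 of 87 members fell and 0 rose, where 24% of all 13447 genes were called lower and 19.2% higher. The median member changed by -0.72, against -0.08 over all genes. From E14 to adulthood 58 of 87 fell and 0 rose, against 30.8% and 20.4% of all 13824 genes, with medians of -1.04 and -0.13. These comprised 28 of 43 large subunit genes, 20 of 31 small subunit genes, 2 of 3 stalk genes and 8 of 9 copies. Both comparisons use the adult libraries, and 46 members were called lower in both. By group means, 62 of 87 members were highest at E14, 15 at P0 and 10 in adults, and 58 ran E14 above P0 above adult. Matching counts over all genes are not given here, so the overlap and this order do not set the family apart.

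Rps2 was at 793, 1232, 945 and 898 at E14, at 1037, 974, 794, 825 and 974 at P0, and at 246, 168, 198, 169.6 and 85.7 in adults. E14 and P0 overlapped and every adult library lay below both. The fall from P0 to adult was -2.47 ± 0.28 (log2, adjusted p = 3.05e-07), the lowest of the 48. Rpl26 had means of 1195 ± 144 at E14, 1064 ± 59.1 at P0 and 272 ± 154 in adults (SD, n = 4, 5 and 5), with adult libraries from 40.6 to 432 (log2 -2.32 ± 0.40 from P0, adjusted p = 6.54e-05). Rps19, the small subunit gene most often mutated in Diamond-Blackfan anaemia, had 260.1 ± 53.2, 182 ± 36.1 and 38.1 ± 14.7, a fall of -2.80 ± 0.23 from E14 to adult (log2, adjusted p = 2.41e-09).

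Rpsa had 786, 974, 981 and 952 at E14, 560.2 to 814 at P0 and 89.7 to 397 in adults, so only E14 and P0 overlapped. Its log2 fold change was -2.01 from P0 and -2.45 from E14 to adult. The stalk base Rplp0 had 2672 ± 151, 1869.7 ± 111 and 690.3 ± 306 (log2 -2.04 ± 0.25 from E14, adjusted p = 7.34e-07). Its partner Rplp1 had 3901 ± 545, 3378 ± 456 and 2373 ± 558, called only from E14 (log2 -0.73 ± 0.28, adjusted p = 0.0325) and lost in 7 of 9 refits without a library. Rplp2 had 269.7 ± 22.1, 286 ± 41.7 and 228 ± 79.3 and no call. Rpl5 (log2 -0.92 from E14), Rpl11 (-0.84) and Rps6 (-1.14) fell as well.

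Of 9 copies tested, 8 fell from E14 to adult and 5 from P0 to adult. The exception from E14 was Rps27rt, with means of 35.6 ± 6.82, 41.3 ± 14.3 and 54.9 ± 32.1 and no call. Rps27l, a p53-inducible relative of Rps27, had 292 ± 110.3 at E14, 157 ± 42.3 at P0 and 54.3 ± 6.07 in adults (log2 -2.34 ± 0.22 from E14, adjusted p = 1.79e-08). Rpl22l1, which replaces Rpl22 in part, had 111 ± 25, 104 ± 30.1 and 31.3 ± 14.8 (log2 -1.89 ± 0.29, adjusted p = 1.37e-05). Rpl39l, the germ cell relative of Rpl39, had 14.5 ± 5, 10.4 ± 4.18 and 3.81 ± 0.975 (log2 -1.66 ± 0.34). Rpl7l1, a nucleolar assembly factor, fell least of all called members (log2 -0.47 ± 0.14, adjusted p = 0.00952), and Rps3a1 (-0.56) and Rps9 (-0.61) came next. Rps19bp1 had 101 ± 9.22, 90.3 ± 15.6 and 75.5 ± 8.28 and was not called.

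Between E14 and P0 the family changed little in the main fit. Of 87 members 8 fell and 0 rose, against 14.4% and 8.29% of all genes, a share below that of all genes. The median was -0.21 against -0.11. Rpl34 stood out, at 1012, 1615, 1297 and 1346 at E14 and 56.7, 26.1, 31.2, 657 and 28 at P0. P0 library 4 lay far above the others of its group and still below all E14 libraries (log2 -4.38 ± 0.92, adjusted p = 0.00187).

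In adults Rpl34 was at 4.31, 266, 36.2, 254 and 26.2, so that these 5 control libraries split into high and low ones as in total brain. The fall from E14 to adult was -4.66 ± 0.92 (log2, adjusted p = 0.000231). The other 7 that fell from E14 to P0 were Rps27l (log2 -0.86), Rpl15 and Rpl22 (both -0.78), Rpl27a and Rpl31 (both -0.75), Rps4l (-0.72) and Rpl37 (-0.45). A fit of these 2 stages alone called 20 members lower, and the share of all genes called in it is not given here. In the main fit no small subunit gene other than copies was called.

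**Figure D4:**
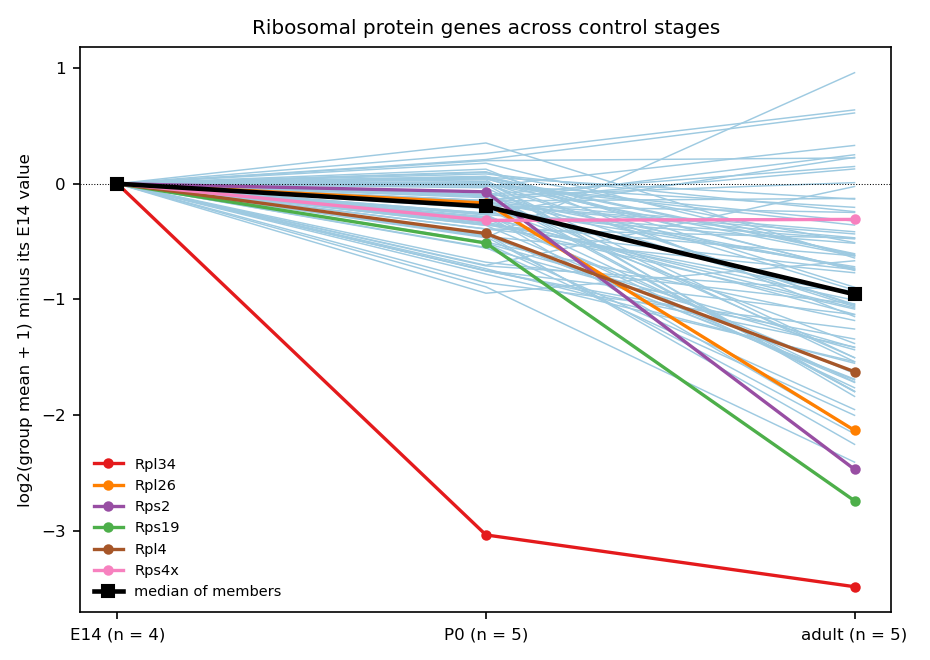
Change of each tested member across control stages, as log2(group mean + 1) minus its E14 value, with 1 pale line per gene, 6 named genes in colour and the median in black. Most lines fall from P0 to the adult stage, Rpl34 drops between E14 and P0, and Rps4x changes little.

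Other parts of the translation machinery fell alongside. From P0 to adult 18 of 19 other genes with an oligopyrimidine tract fell (median -1.07), with Nap1l1 at -1.88, Pabpc1 at -1.48 and Eif4b at -1.03, and so did 18 of 23 initiation factors, 32 of 46 assembly genes and 33 of 77 mitochondrial ribosomal proteins. Gnb2l1 fell by 1.41. Eef2k, the kinase that halts elongation, rose by 1.99 ± 0.16 (log2, adjusted p = 2.41e-09). Neuronal markers fell as well, 10 of 15, with sums of 352 to 909 at E14, 113 to 256 at P0 and 13 to 26 in adults, where Syt1, Nefl, Nefm and Dcx were at 0. Microglial markers summed to 35311 to 39468, 45119 to 57940 and 77642 to 91249, and erythroid markers to 841 to 1421, 18317 to 68392 and 58 to 2904. From P0 to adult, border macrophage sums went from 1760 to 2227 down to 552 to 795, astrocyte sums from 40 to 68 up to 280 to 718, and monocyte and neutrophil sums from 173 to 559 up to 831 to 2187. Aqp4 and Gfap were at 0 in adults. Their part in the decline was not tested.

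Adult libraries of the developmental table split for some members. Rpl7 was at 38.8 and 26.3 in adult libraries 1 and 2 and at 183, 191 and 159 in libraries 3, 4 and 5, and Rps27a, fused to ubiquitin, at 10 and 7.9 against 91.5, 85.3 and 96.8. The labels give no reason for this. With only adult libraries 3 to 5, 39 members fell from P0 and 7 rose, among them Rpl23a (log2 2.14), Rps27a (1.36) and Rpl7 (1.06), and with libraries 1 and 2 alone 56 fell and none rose. These subsets and the genes named with them were chosen after the values were seen. The shares of all genes called in these fits are not given here, so the counts do not set the family apart. Words shared with other genes made up 71% of those of Rpl7, 92.9% of Rpl23a and 92.7% of Rps27a.

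In newborn microglia, Dicer-deficient libraries differed from controls in opposite directions for Rpl34 and Rpl26. Only the deficient libraries carried Cre, so Cre and loss of Dicer cannot be told apart here. The comparison used the 2 Dicer-deficient and the 3 control libraries that the labels assign to it, and of 87 members 1 was called higher and 1 lower, against 1.04% and 0.444% of all 13064 genes. Rpl34 was at 56.7, 26.1 and 31.2 in controls and at 1991 and 599 in Dicer-deficient libraries (log2 4.89 ± 0.50, adjusted p = 0.00278). P0 control 4, outside this comparison, had 657 and lay within the range of the deficient pair. With all 5 controls and the other stages in the fit the log2 fold change was 4.13 (adjusted p = 0.0174).

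Rpl26 was at 1125, 1076 and 968 against 255 and 414 (log2 -1.69 ± 0.30, adjusted p = 0.0233). Both deficient libraries lay below all 5 newborn controls. The call of Rpl26 was lost without any 1 of the 3 controls and that of Rpl34 without control 1 or 2. Dicer-deficient library 1 had many members far above library 2, such as Rps14 at 9551 against 2466, Rplp1 at 8992 against 2263 and Rplp2 at 1965 against 298. Controls 1 to 3 averaged 2503 ± 69.1 for Rps14 and 3484 ± 483 for Rplp1. The members' median was 0.28 with both libraries, -0.23 without library 1 and 0.76 without library 2. A fit without either library rests on a single deficient library, so only effect sizes are given for it. The direction of the family as a whole therefore rests on library 1. Without library 1, Rpl34 had a log2 fold change of 4.02 and Rpl26 of -1.35, each in the same direction as with both libraries. Microglial markers summed to 45119 to 57940 in the 5 newborn controls and 60389 to 86139 in the deficient pair, erythroid markers to 18317 to 68392 and 11214 to 17037, astrocyte markers to 40 to 68 and 18 to 26, and endothelial markers to 999 to 1296 and 1393 to 2228. In the deficient pair 6 of 10 astrocyte markers were at 0, among them Aqp4 and Gfap. No microglial or astrocyte marker was called, and the part of these cell types was not tested.

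The adult table could not answer the question for most members. It compared steady-state control and Dicer-deficient microglia, and 0 of 40 members tested were called in limma, edgeR or DESeq2, with 2 at an unadjusted p under 0.05 in limma, where 3.15% of 11045 genes were called higher and 2% lower. The members' median was -0.18 against 0.05, and 28 of 40 lay below 0. Of its 86 members 33 were listed at 0 in all 7 libraries, among them Rplp1, Rps14, Rpl8, Rpl32, Rps2 and Rpl34. Of the 42 members with a mean of at least 100 in total brain steady-state controls, 15 (35.7%) were listed at 0 here, against 1.11% of 4412 other genes at that level. Mean levels over all 7 adult-table libraries, both genotypes included, were set against means of total brain steady-state controls. The Spearman rho was 0.19 over members and 0.93 over 19273 other genes. No level threshold was set, so the range of levels may differ between these sets of genes.

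Rpl41, which encodes the shortest member, made up 46.7% to 53.6% of the table's ribosomal protein reads, at 7177, 6284, 5827 and 6640.2 in controls and 5162, 5000.2 and 5697 in Dicer-deficient libraries. The groups did not overlap and the gene had no call. Rps24 was at 406, 227, 220.2 and 241 against 181, 158 and 232, with overlap. Rpl5 had 186 ± 33.8 (SD, n = 4) and 189 ± 39.9 (n = 3), Rps6 had 73.3 ± 28.7 and 57.9 ± 6.9, and Rpl4 had 321 ± 64.7 and 247 ± 42.8. Of other translation genes Eef1a1, the main elongation factor, fell from 5537 ± 410.5 to 3655 ± 1028 and Myc from 329.9 ± 90.6 to 118 ± 32.8 (log2 -0.64 and -1.47). Astrocyte markers summed to 1406 to 1574 in controls and 640 to 1162 in deficient libraries, and their part was not tested. A gene listed at 0 here is only that, and no absence from the cells is shown by it.

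**Figure D5:**
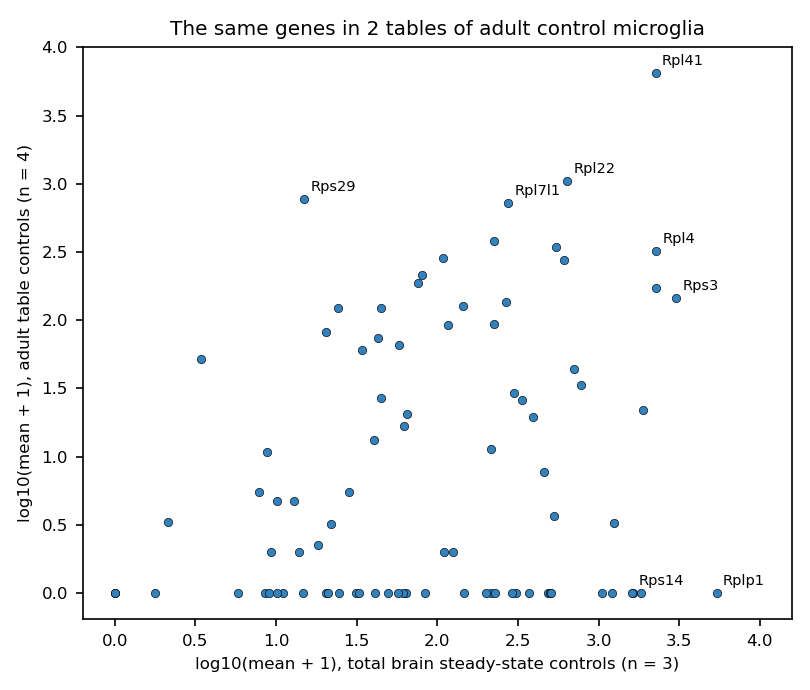
Mean normalised read count of each member in control microglia at steady state, as log10(mean + 1), in the total brain table (x axis, n = 3) and the adult table (y axis, n = 4), 1 point per gene. Many genes at high levels in total brain, such as Rplp1 and Rps14, lie at 0 in the adult table, and Rpl41 is the highest there.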

How the data were processed

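Poly(A) RNA of sorted microglia was measured by RNA-seq in 46 libraries. Per the submitters' processing notes, bcl2fastq, HISAT 0.1.5, SAMtools, HOMER, DESeq2 and build mm9 were used, with no role given. The deposited tables hold a signal per gene, which from the values is a read count multiplied by 1 factor per library; the authors' normalisation to make it is not given in the sources used here. At least 99.94% of values above 0 were whole reads within 0.1 read, giving 898451 to 4573063 reads per library, and counting statements cover counting error only. No column lacked a sample.

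The main test was limma 3.58.1 in R 4.3.3 on log2(value + 1), keeping a gene when the number of libraries at 1 or above reached the size of the smallest group, with 1 fit per table and Benjamini-Hochberg adjustment over all genes tested (threshold 0.05). Fold changes are on that scale and understate low genes. Newborn Dicer loss was fitted on its own 5 libraries. Alternatives were pseudocounts of 0.1 and 5, no filter, only the groups compared, a block, each library left out, and edgeR 4.0.16 and DESeq2 1.42.0 on recovered reads. The hippocampal interaction and the subsets of adult libraries were added after seeing the data. The scripts were tested on simulated data.

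Members and lists were chosen with earlier results of these data known. Named were all called members up to 10, otherwise the 5 highest and 5 lowest, plus Rpsa, the stalk, Rps6, Rpl5, Rpl11, the copies and Rps19bp1; up to 3 genes of smallest p were named per related list. Sequence sharing used 50-base words of GENCODE M21 transcripts, and promoters came from RefSeq (GRCm38.p6). Values of some genes that this rule names are not reported here.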

Additional observations from a re-analysis of the deposited data

Results flagged for a closer look

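A library far from the others was looked for in 80 pairs of a gene and a group of 4 or 5 libraries. Chance alone would mark about 1 in 20, and 10 were marked. Pairs of the same group share their libraries. In the adult table, Rpl26 was at 10.7 in control 3 and 0 in the other 3 controls, and Rps24 was at 406 in control 1 against 220.2 to 241. The value of Rpl26 is near the floor, as 1 read counts 5.37 in control 3. After LPS in total brain controls, Rplp1 was at 10439 in library 32 against 7320.1 to 7508, and Rpl37a at 1145 in library 17 against 349.6 to 420.3. After LPS in Dicer-deficient total brain, Rpl26 was at 243 in library 36 against 11.1 to 17, and Rps2 at 106 in library 38 against 13 to 26.3. In the developmental table, Rplp1 was at 3339.6 in adult 2 against 1922 to 2287, Rpl34 at 657 in P0 control 4 against 26.1 to 56.7, Rpsa at 786 in E14 library 1 against 952 to 981, and Rps4x at 397 in E14 library 3 against 307 to 317.

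In the hippocampus, the LPS effect of Rps2 and Rpl32 went in opposite directions in all control and all Dicer-deficient libraries. The copy Rps27rt, at a lower level, did so as well. In controls it was at 15.8 and 16.4 at steady state and at 18.8 and 22.8 after LPS. In Dicer-deficient libraries it was at 16.9, 18.1 and 27.5 and then at 9.72 and 14.8. The difference of effects was -4.77 ± 0.59 for Rps2 (limma, log2, adjusted p = 0.0207) and -1.20 ± 0.35 for Rpl32 (adjusted p = 0.631), and the latter did not pass the test.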

How the results depend on the processing

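Of 220 counts of called members under alternatives, 168 stayed within 1.5 times the reported count. Of 220 medians 219 kept their sign, and of 1494 values of named members 1251 kept direction and side of the threshold, 241 lost their call, 2 gained one and none reversed. For total brain Dicer loss at steady state, 3 calls became 1 with a pseudocount of 0.1 or no filter, 0 with edgeR under either scaling, 7 with DESeq2, and 0 to 3 with a library left out. With only the groups compared, LPS in total brain controls gave 6 calls, hippocampal Dicer loss after LPS gave 1, and P0 against E14 gave 20. LPS in hippocampal controls gave 1 call with a pseudocount of 5, only the groups compared, edgeR under both scalings, or DESeq2. DESeq2 gave 6 for hippocampal Dicer loss after LPS, 8 for LPS in Dicer-deficient hippocampus, 2 for the hippocampal interaction and 5 for newborn Dicer loss, which had 14 with all newborn controls and stages.

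With a library left out, calls ran from 13 to 23 for total brain Dicer loss after LPS (13 without Dicer-deficient library 36, 14 without library 37 or control 31) and from 2 to 17 for LPS in total brain controls (2 without steady-state control 9, 17 without LPS control 33). They ran from 3 to 12 for LPS in Dicer-deficient total brain, 0 to 1 for the total brain interaction, 1 to 4 for hippocampal Dicer loss after LPS, 0 to 1 for LPS in hippocampal controls, 2 to 3 for LPS in Dicer-deficient hippocampus, 0 to 1 for the hippocampal interaction, and 0 to 59 for newborn Dicer loss (59 without Dicer-deficient library 2). The cause was not tested.

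With the replicate block, newborn Dicer loss had 5 calls, P0 against E14 had 7, adult against P0 had 47, adult against E14 had 54 and Dicer loss in the adult table had 0. Same-numbered libraries had correlations from -0.21 to 0.10, so they share only a number. edgeR TMM scaling moved the median of all genes by 0.15 for adult against E14, where the members' median was -0.84. Depth limits members with few reads, such as Rpl11 and Rpl12.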

Other observations

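A pair of translation regulators outside the family changed after LPS in both regions and both genotypes. Eef2k, the kinase that inactivates elongation factor 2, had log2 fold changes of -1.35 ± 0.35 in controls and -1.96 ± 0.35 in Dicer-deficient microglia of the total brain, and of -1.43 ± 0.33 and -2.28 ± 0.30 in the hippocampus (limma, SE, adjusted p from 0.000636 to 0.0269). Eif4ebp1, an inhibitor of the cap-binding factor and a target of mTORC1, rose in the same 4 comparisons, least in hippocampal controls (1.37 ± 0.30) and most in Dicer-deficient hippocampus (1.98 ± 0.27, adjusted p from 8.42e-05 to 0.0197). Eef2k was higher at each later control stage, by 1.28 ± 0.17 from E14 to P0 and by 3.27 ± 0.17 from E14 to adult. The assembly factor Heatr1 was called higher in limma with Dicer loss in the adult table (1.37 ± 0.23, adjusted p = 0.00167). With Dicer loss after LPS in total brain it was called higher too (1.09 ± 0.33, adjusted p = 0.0462), alone among the assembly genes. Of all genes tested, 3.15% were called higher with Dicer loss in the adult table and 3.93% after LPS in total brain. How many other genes were called in both comparisons is not given here, so the recurrence does not set Heatr1 apart.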
